A study of Rattus norvegicus with 12 samples.

Results

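A set of 10 genes known from young neurons was followed here across libraries of oligodendrocyte precursor cells (OPCs), the glial progenitors that give rise to myelinating oligodendrocytes. They are the homeobox genes Dlx1 and Dlx2, the microtubule genes Tubb3, Map2, Dcx and Stmn2, the RNA-binding protein gene Elavl4, the growth cone genes Dpysl5 and Dpysl3, and the synaptic vesicle gene Syp. Each was found by its symbol, which gave 10 of the 30562 genes in the count table. The 10 genes were chosen by values of these same libraries, namely the difference between mild-hypo-OPCs and standard OPCs. Their levels and differences between the groups are therefore given as a description. Results of the fit over all genes are counted for them below, but not as a test of the members. The promoters of the genes and their variation among libraries of the same group did not enter the choice. Related genes are given beside them from lists that were also drawn up with earlier results of these libraries known.

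The study measured RNA by sequencing in primary OPCs cultured from the cortex of wild-type Sprague-Dawley rats on the first or the second postnatal day. In 6 libraries, called mild-hypo-OPCs, the cells had been kept at an inspired oxygen fraction (FiO2) of 5%. The duration is 6 hours in the labels. The methods text gives days instead. In the other 6, called standard OPCs, they had been kept in room air. Both groups grew in a serum-free medium with B27, FGF-2 and PDGF-AA, so all libraries share the growth factors that hold OPCs in a proliferating state. The labels do not say whether the libraries of a group came from separate cultures, so the p-values below measure only the spread between these libraries, which may be in part technical.

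Neurons and oligodendrocyte lineage cells of the forebrain arise from overlapping pools of neural progenitors. DLX1 and DLX2 are transcription factors of the ventral forebrain, where they direct progenitors to inhibitory neurons that use GABA and restrain the production of OPCs. A newborn neuron then builds axon and dendrites from microtubules, whose subunits and binding proteins include the products of Tubb3, Map2, Dcx and Stmn2, guides them by growth cones rich in the collapsin response mediator proteins of the Dpysl genes, and later forms synapses whose vesicles carry synaptophysin, the product of Syp. Several of these genes, Map2 and Dpysl3 among them, are also transcribed in the oligodendrocyte lineage, so a count for them is not by itself a count of neurons.

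Promoters were read for 8 of the 10 genes as the 250 bases upstream of the RefSeq transcription start in build GRCr8. They are shown for the 3 genes whose levels differed most between the groups among those with a sequence, and for Elavl4, which had the opposite sign. Capitals mark each CpG, the dinucleotide in which mammalian DNA is methylated, and all are written 5′ to 3′ on the strand of the gene.
Dlx1, chr3:76763614-76763863, plus strand: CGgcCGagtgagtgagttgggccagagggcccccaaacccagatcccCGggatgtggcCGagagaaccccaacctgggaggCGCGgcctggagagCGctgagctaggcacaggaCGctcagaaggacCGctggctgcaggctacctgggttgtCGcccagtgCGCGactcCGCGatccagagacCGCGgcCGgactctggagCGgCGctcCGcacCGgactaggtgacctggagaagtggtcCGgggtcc
Tubb3, chr19:68365437-68365686, plus strand: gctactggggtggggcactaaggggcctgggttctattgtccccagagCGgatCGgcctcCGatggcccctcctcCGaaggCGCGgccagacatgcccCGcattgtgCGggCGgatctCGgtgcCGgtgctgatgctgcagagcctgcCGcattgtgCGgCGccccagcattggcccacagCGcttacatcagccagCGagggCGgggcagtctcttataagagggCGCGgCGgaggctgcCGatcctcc
Dpysl5, chr6:31379349-31379598, minus strand: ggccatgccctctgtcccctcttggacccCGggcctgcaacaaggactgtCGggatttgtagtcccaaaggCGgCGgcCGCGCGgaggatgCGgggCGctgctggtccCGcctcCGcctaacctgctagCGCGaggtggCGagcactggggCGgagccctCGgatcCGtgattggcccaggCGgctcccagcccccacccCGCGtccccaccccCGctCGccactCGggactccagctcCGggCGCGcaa
Elavl4, chr5:130367664-130367913, minus strand: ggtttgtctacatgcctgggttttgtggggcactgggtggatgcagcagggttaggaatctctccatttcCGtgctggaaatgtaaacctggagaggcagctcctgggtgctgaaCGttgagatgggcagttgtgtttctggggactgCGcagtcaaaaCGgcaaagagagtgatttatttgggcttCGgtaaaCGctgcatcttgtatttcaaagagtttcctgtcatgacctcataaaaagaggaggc

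The first 3 of these windows were rich in CpG, with 22 for Dlx1, 21 for Tubb3 and 26 for Dpysl5, and the Elavl4 window held 6. The median of the 33465 rat promoters of the same length was 5. Syp, whose mean level was nearly the same in both groups, had 22 as well, and the start sites of Dpysl3 had 19 and 20. The Dcx window held 2 and the Map2 window 1. The letters ACGTG, the core that hypoxia-inducible factors bind, were searched on both strands and occurred in 16.6% of all promoters. Among the members they occurred at 1 of the 2 start sites of Dpysl3 and in none of the other windows. The GC box GGGCGG, found in 30.5% of all promoters, occurred in those of Tubb3, Dpysl5, Dpysl3 and Syp. The homeobox core TAATTA, found in 4.86% of all promoters, occurred in the window of Dcx alone. A match or its absence describes these letters in these windows only. Dlx1 and Dlx2 are neighbours, with 0 genes between them in the RefSeq annotation.

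The mild-hypo libraries held 4111669 to 9022324 counts and the standard libraries 1356079 to 2797513, without overlap, and depth and condition cannot be told apart. Levels are given as CPM, the count of a gene relative to the size of its library, after scaling by trimmed mean of M-values (TMM) factors, and are compared only within a gene. A gene was tested if it exceeded 10 CPM in at least 1 library, which 8938 genes did. It was called if its adjusted p fell below 0.05 in the quasi-likelihood test of edgeR, which gave 626 genes called higher in mild-hypo-OPCs and 1520 called lower. Upper-quartile factors gave a more even split of 1136 and 1255.

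Dlx1 was low in both groups and higher in mild-hypo-OPCs. Its lowest, median and highest levels were 7.93, 10.1 and 11.01 CPM in mild-hypo-OPCs against 3.17, 5.89 and 8.34 CPM in standard OPCs. The groups overlapped through mild-hypo replicate 6 alone, and the other 5 mild-hypo libraries lay above the highest standard library. The means were 9.91 ± 1.10 and 5.85 ± 2.13 CPM (SD, n = 6 each), and the log2 fold change was 0.82 (SE 0.22), a fold of 1.76. These levels rested on 43 to 102 counts per mild-hypo library and 6 to 15 per standard library.

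Dlx2, which acts largely in concert with Dlx1, stayed below 10 CPM before scaling in every library and was not among the genes tested. Its levels were 4.66, 6.56 and 7.13 CPM (lowest, median and highest) in mild-hypo-OPCs and 1.11, 2.71 and 9.16 CPM in standard OPCs, from 29 to 63 and from 2 to 12 counts. Standard replicate 6 lay above every mild-hypo library and the other 5 standard libraries lay below all of them. Fitted with all genes and no filter, the log2 fold change was 0.81 (SE 0.30), close to that of Dlx1. Within the standard group replicate 3 had the highest Dlx1 level and the lowest Dlx2 level, from 15 and 2 counts. Counts this low in 1 library cannot show whether the neighbours go together.

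Tubb3, which encodes a beta-tubulin typical of neurons, had levels of 92.5, 96.9 and 110.4 CPM (lowest, median and highest) in mild-hypo-OPCs and 50.6, 55.1 and 77.6 CPM in standard OPCs. The groups did not overlap. The log2 fold change was 0.72 (SE 0.10), a fold of 1.64, and the counts ran from 474 to 887 and from 56 to 203.

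The other microtubule genes differed less. Map2, which encodes a protein that binds and spaces microtubules in dendrites, had levels of 114, 130 and 157 CPM in mild-hypo-OPCs and 93.3, 112 and 126 CPM in standard OPCs, with overlapping groups and a log2 fold change of 0.24 (SE 0.09). Dcx, the gene of the migration protein doublecortin, had 92.4, 103 and 124 CPM against 81.3, 96.0 and 131 CPM. The Dcx groups lay within one another, with a log2 fold change of 0.07 (SE 0.11), smaller than its error. Stmn2, whose product destabilises microtubules in growth cones, had 6.74, 7.44 and 9.40 CPM against 2.22, 5.57 and 11.04 CPM. Standard replicate 4 stood above all mild-hypo libraries, the other 5 standard libraries stood below them, and the log2 fold change was 0.47 (SE 0.25) from as few as 4 counts in a standard library.

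Dpysl5 had the largest difference of the 10 genes. Its product, CRMP5, takes part in the collapse of growth cones and in neurite outgrowth. The levels were 14.6, 16.4 and 18.7 CPM in mild-hypo-OPCs and 5.00, 7.48 and 10.6 CPM in standard OPCs, without overlap, and the log2 fold change was 1.09 (SE 0.16), a fold of 2.13. Its counts ran from 83 to 146 in mild-hypo libraries and from 7 to 22 in standard libraries. Dpysl3, which encodes CRMP4 of the same family, was far closer between the groups, with 228, 256 and 289 CPM against 190, 218 and 231 CPM, a slight overlap and a log2 fold change of 0.26 (SE 0.08).

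Elavl4, which encodes the RNA-stabilising protein HuD, was the member with the opposite sign. It had 6.45, 9.24 and 10.6 CPM in mild-hypo-OPCs and 10.03, 11.4 and 14.0 CPM in standard OPCs. In 5 of the 6 standard libraries it lay above the highest mild-hypo library, and the log2 fold change was -0.41 (SE 0.17). The sign depended on the scaling: with library sizes in place of TMM factors Elavl4 had 0.017, where the median of all tested genes was 0.43. Syp had 42.5, 43.5 and 44.4 CPM against 33.4, 40.8 and 54.7 CPM, so the mild-hypo libraries fell inside the range of the standard libraries, and the log2 fold change was 0.03 (SE 0.10).

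**Figure D1:**
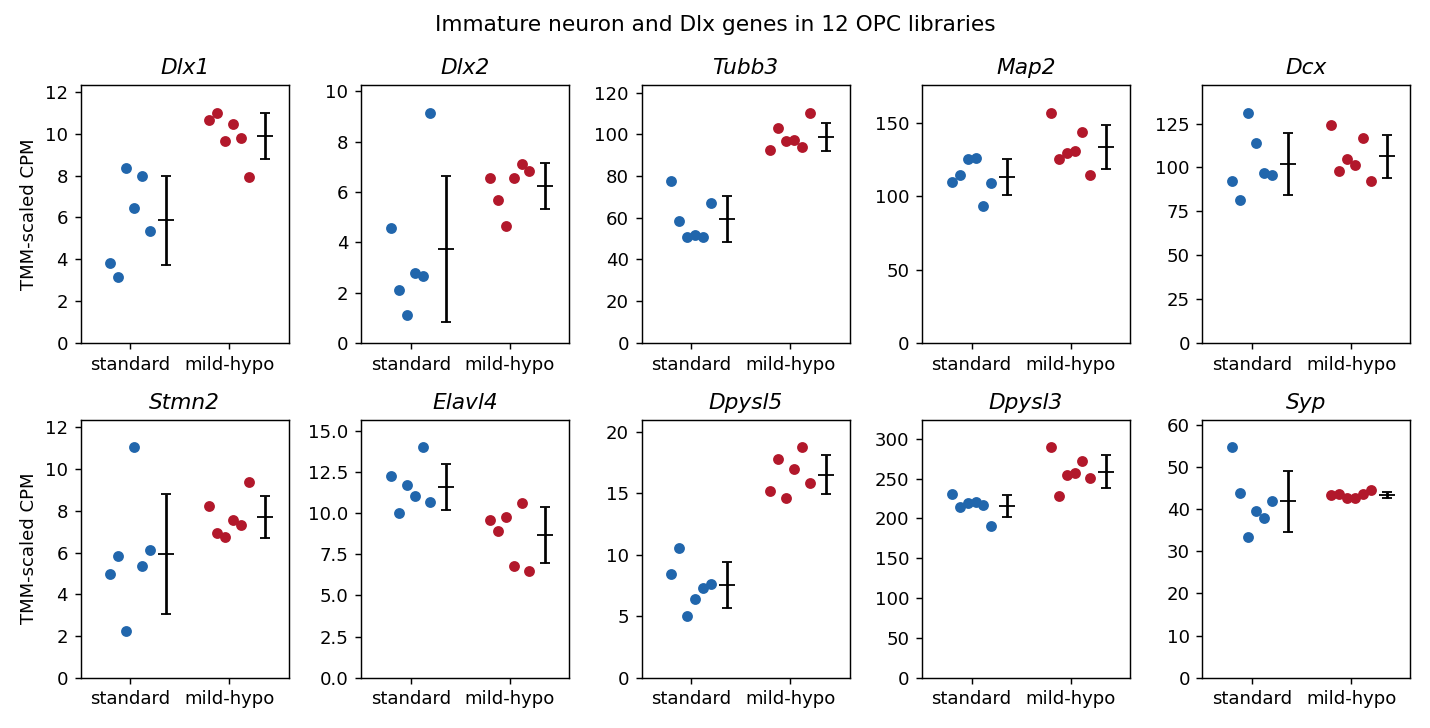
TMM-scaled CPM (vertical axes, linear, starting at 0) of the 10 genes in each of the 12 libraries, with standard OPCs in blue, mild-hypo-OPCs in red, and the mean and SD of each group as a black bar. Tubb3 and Dpysl5 had no overlap between the groups, Dlx2 and Stmn2 each had 1 standard library above all mild-hypo libraries, and the mild-hypo values of Syp lay between 42.5 and 44.4 CPM.

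Set side by side in the plot of log2 fold changes, the genes fell in a graded order. Dpysl5, Dlx1, Dlx2 and Tubb3 lay between 0.72 and 1.09. Dlx1 and Dlx2 differed from each other by less than their errors, and so did each of them from Tubb3, with Dlx2 taken from the fit without a filter. The same held for Dpysl3 and Map2, and for Dcx and Syp. Of the 9 members tested, 4 were called higher (Dlx1, Tubb3, Dpysl5 and Dpysl3), 0 were called lower and 5 were not called, beside 7.00% of all tested genes called higher and 17.0% called lower. At an unadjusted p under 0.05 the edgeR count of lower members was 1, Elavl4, and limma-voom and DESeq2 also gave 1, with 0 after adjustment. Of these 9, 2 did not overlap between the groups with the mild-hypo libraries higher, beside 2.94% of all tested genes. Since the members were selected on this contrast, nothing is read from these counts. Dlx1, Dpysl5 and Stmn2 passed 10 CPM only in mild-hypo libraries, so their entry among the tested genes depended on being high there. The median log2 fold change of the 9 was 0.26, that of all tested genes was near 0, and 8 of the 9 were positive.

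**Figure D2:**
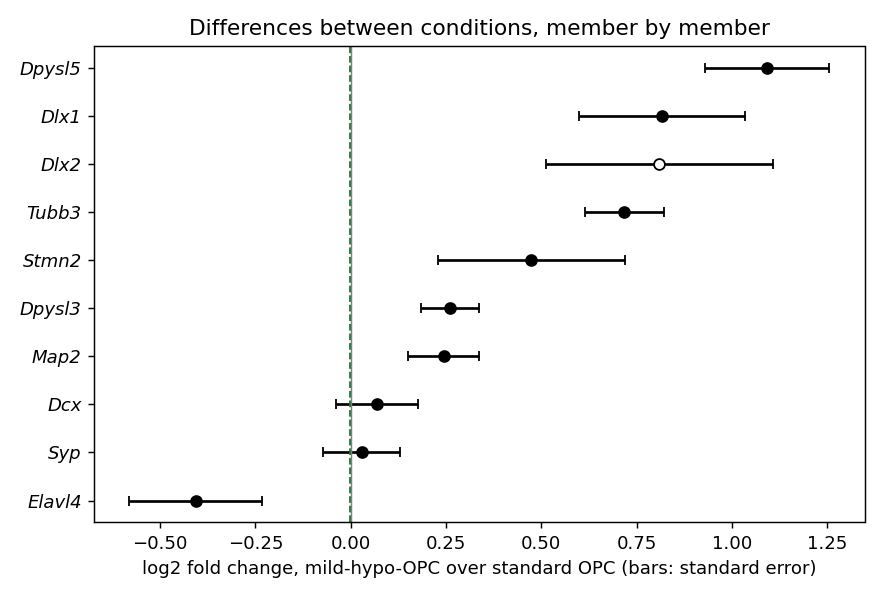
Log2 fold change of mild-hypo-OPCs over standard OPCs (horizontal axis) for each gene with its standard error as a bar; the open circle for Dlx2 comes from the fit without a filter, the solid vertical line is 0 and the dashed line the median of all tested genes. The estimates ran from -0.41 for Elavl4 to 1.09 for Dpysl5, and those of Dcx and Syp lay within their error of 0.

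The differences were refitted with other scalings and with depth. With library sizes in place of TMM factors the median of all tested genes moved to 0.43 and that of the members to 0.70. With upper-quartile factors the medians were 0.06 and 0.33. The log2 library total, which did not overlap between the groups, was also used as a covariate in edgeR. This left 0 members called, with 2 higher and 0 lower at an unadjusted p under 0.05, and a members' median of 0.030. Over all tested genes it left 0 called higher and 43 called lower, so the loss of calls was not particular to the members. With that covariate the log2 fold change was 0.88 for Dlx1, 0.63 for Tubb3, 1.21 for Dpysl5 and 0.030 for Dpysl3. Over all settings tried Dlx1 ranged from 0.50 to 1.24, Dpysl3 from 0.030 to 0.70, Tubb3 from 0.63 to 1.15 and Dpysl5 from 0.89 to 1.52. Stmn2 ranged from 0.17 to 0.90. The remaining tested members changed sign between settings. Map2 ranged from -0.017 to 0.68, Dcx from -0.12 to 0.51, Syp from -0.16 to 0.46 and Elavl4 from -0.71 to 0.017. The lowest value of each of these came from the fit with the covariate.

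Whether the genes varied together was asked within each group, where the difference between the conditions plays no part. In mild-hypo-OPCs the number of the 10 members above their own group mean was 8, 5, 1, 3, 7 and 4 in replicates 1 to 6. In standard OPCs it was 6, 5, 5, 5, 3 and 5. Mild-hypo replicate 1 was thus high for most members and replicate 3 low for most, while the standard libraries were each mixed. This turned with the scaling: with library sizes only, mild-hypo replicate 1 had 4 members above the mean, replicate 5 had 10, and standard replicate 1 had 9, while mild-hypo replicate 3 stayed at 1. Over the 45 pairs of members the correlation among the 6 mild-hypo libraries was positive in 25, with a median of 0.02 and a range from -0.91 to 0.98. Among the 6 standard libraries it was positive in 18, with a median of -0.09. With 6 libraries that share depth and scaling, these correlations are a description only. The median was near 0 in both groups.

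**Figure D3:**
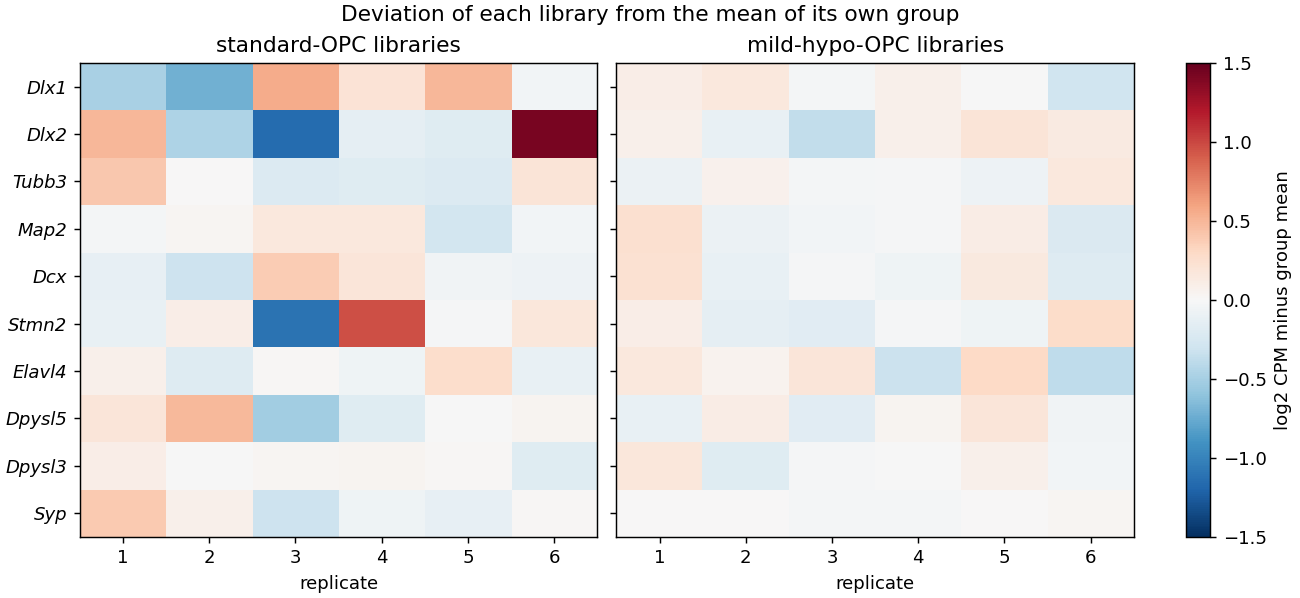
Deviation of log2 CPM from the mean of the library's own group (colour, from -1.5 in blue to 1.5 in red) for each gene (rows) and replicate (columns), standard OPCs left and mild-hypo-OPCs right. Columns mix red and blue, the strongest colours belong to Dlx2 and Stmn2 in single standard libraries, and Syp was almost without deviation in mild-hypo-OPCs.

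The size of the variation differed from gene to gene. Among mild-hypo libraries the variance relative to counting error was 0.703 for Dlx1, 0.819 for Dlx2, 0.740 for Stmn2 and 0.979 for Dpysl5, where 1 is the spread that counting alone gives. The more abundant Map2, Dpysl3 and Dcx varied beyond counting, at 12.05, 11.8 and 9.51, beside a median of 1.94 over all tested genes. In standard OPCs these 3 had 1.96, 1.38 and 5.61, Tubb3 had 4.03, Dlx2 3.33 and Dpysl5 0.822, again beside a median of 1.94. At the same relative spread this ratio grows with the count. It is therefore not like for like between genes of unlike abundance or groups of unlike depth. The coefficient of variation was 36.4% for Dlx1, 77.4% for Dlx2 and 48.5% for Stmn2 in standard OPCs against 11.1%, 14.6% and 12.8% in mild-hypo-OPCs. For Elavl4, another low gene, it was smaller in standard OPCs, at 12.02% against 19.6%.

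The non-member genes whose deviations from the group means over the 12 libraries were most like the mean deviation of the members were Chdh (Pearson r = 0.93), Zfta (0.91), Aqr (0.89), Zfp579 (0.84) and Maml1 (0.83). They head a ranking of all other tested genes over 12 libraries, which by itself picks high values of r, so nothing is read from them. Of these 5, 0 were called between the groups, beside 7.00% of all tested genes called higher and 17.0% lower.

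Related genes were taken from 4 lists of neuronal genes. Of their 151 genes, 149 were in the table and 82 were tested. In mild-hypo-OPCs 16 were higher, 8 were lower and 58 did not pass the test, with a median log2 fold change of 0.10. Over all tested genes 7.00% were called higher and 17.0% lower, with a median near 0. These shares also stand beside the counts of each list below. The split of the related genes was 20 and 6 with upper-quartile factors and 66 and 1 with library sizes only. Over all tested genes these scalings gave 12.7% higher and 14.0% lower, and 61.7% higher and 4.53% lower. With the log2 library total as a covariate 0 related genes were called in either direction, where all tested genes gave 0 higher and 43 lower. At an unadjusted p under 0.05, 3 related genes were then higher and 7 lower. Without standard replicate 3 the counts of related genes called were 11 and 5. Without mild-hypo replicate 3 or standard replicate 4 or 6 their lower count was also 5. Some relatives of members named below (Dpysl2, Dpysl4 and Stmn4) were picked after their values were seen.

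Of the Dlx and GABAergic interneuron genes, 11 of 39 were tested, 1 rose, 1 fell and 9 did not pass. Reln, the gene of the extracellular guidance protein reelin, fell from 25.4 to 16.9 CPM (log2 fold change -0.57, SE 0.18, adjusted p = 0.0281). The Reln call was lost without mild-hypo replicate 3 (adjusted p = 0.0608) or 4 (0.0613), and without standard replicate 3 (0.115) or 6 (0.0578). Gad1, which makes GABA, had 6.95 and 6.13 CPM in mild-hypo and standard OPCs (log2 fold change 0.27, SE 0.25, adjusted p = 0.466). The other Dlx genes of the forebrain were too low to test: Dlx5 had 4 to 15 counts per mild-hypo library and 0 to 3 per standard library, and Dlx6 0 to 4 in both. Gad2, the second GABA-synthesising enzyme, had 9 to 34 and 3 to 10 counts.

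The largest list held neuronal cytoskeleton and growth cone genes, of which 38 of 44 were tested, 7 rose, 5 fell and 26 did not pass. Dclk1, the close relative of Dcx, rose from 37.9 to 60.0 CPM (log2 fold change 0.66, SE 0.13, adjusted p = 0.00126), whereas Dcx itself had the 0.07 given above. Cdk5r1, the activator of the neuronal kinase Cdk5, rose by 0.60 on the log2 scale (SE 0.16, adjusted p = 0.0107), and Rtn1, a reticulon of the endoplasmic reticulum, by 0.37 (SE 0.08, adjusted p = 0.00155). Of the other collapsin response mediator genes, Crmp1 rose from 68.3 to 90.1 CPM (0.40, SE 0.09, adjusted p = 0.00380) and Dpysl4 by 0.27 (SE 0.07, adjusted p = 0.0102), while Dpysl2 had 0.12 (SE 0.08, adjusted p = 0.326).

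Among the 5 genes that fell in this list, Fez1, an adaptor for kinesin transport, fell from 185 to 130 CPM (log2 fold change -0.51, SE 0.10, adjusted p = 0.00113), and Gap43, a growth cone membrane protein, from 152 to 112 CPM (-0.43, SE 0.09, adjusted p = 0.00204). Uchl1, a ubiquitin hydrolase abundant in neurons, which the naming rule does not cover, fell by 0.41 on the log2 scale (adjusted p = 0.00892). Stmn3, a stathmin, fell by 0.44 on the log2 scale (SE 0.14, adjusted p = 0.0310) and Dcc, the netrin receptor, by 0.49 (SE 0.17, adjusted p = 0.0384). The calls of Stmn3 and Dcc were lost on leaving out 1 library in 8 and 9 of 12 cases. The stathmin genes Stmn1 and Stmn4 did not pass the test. Stmn1 had -0.06 (SE 0.07, adjusted p = 0.579) and Stmn4 had 0.16 (SE 0.08, adjusted p = 0.146), beside the 0.47 of the member Stmn2. With library sizes in place of TMM factors the values of Gap43 and Stmn3 turned to 0.0088 and 0.0061 and that of Stmn1 to 0.38, where the median of all genes was 0.43.

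Of the neuronal RNA-binding proteins and transcription factors, 14 of 33 were tested, 1 rose and 0 fell. This was Celf5, a splicing regulator, at 8.73 against 6.00 CPM (log2 fold change 0.58, SE 0.21, adjusted p = 0.04998), and the call was lost in 7 of the 12 fits without 1 library. Celf5 had 35 to 103 counts per mild-hypo library and 6 to 18 per standard library. It passed the filter only in mild-hypo libraries, so its entry among the tested genes depended on being high there. Elavl3, a neuronal relative of Elavl4, had 36.4 and 32.0 CPM (0.15, SE 0.14, adjusted p = 0.439). Rbfox3, the gene of the nuclear marker NeuN, had 11 to 36 counts per mild-hypo library and 1 to 11 per standard library and was not tested.

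Of the synaptic vesicle and presynaptic genes, 19 of 35 were tested, 7 rose, 2 fell and 10 did not pass. Synpr, which encodes synaptoporin, the relative of the Syp product, rose from 6.95 to 13.3 CPM (log2 fold change 0.95, SE 0.25, adjusted p = 0.00892), where Syp had 0.03. Syt4, a synaptotagmin, rose from 46.9 to 70.2 CPM (0.55, SE 0.11, adjusted p = 0.00109). The vesicle genes Sv2a and Syn1 rose by 0.41 (SE 0.11, adjusted p = 0.00815) and by 0.40 (SE 0.11, adjusted p = 0.0122). Pclo, the gene of the active zone scaffold piccolo, fell from 9.03 to 3.57 CPM (-1.21, SE 0.33, adjusted p = 0.0109). This rested on 10 to 39 counts per mild-hypo library and 9 to 22 per standard library. Its highest level was 5.64 CPM in mild-hypo-OPCs and 20.2 CPM in standard OPCs. Pclo passed the filter only in standard libraries, so its entry among the tested genes depended on being high there. Leaving out 1 library at a time, it was tested in 11 fits and called in all 11. Syt1, the calcium sensor of fast release, had 16.8 and 13.2 CPM (0.29, SE 0.17, adjusted p = 0.216), and its difference passed the test without standard replicate 1 (0.49, adjusted p = 0.0374). Snap25, a core fusion protein, had 30 to 57 and 6 to 15 counts and was not tested.

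**Figure D4:**
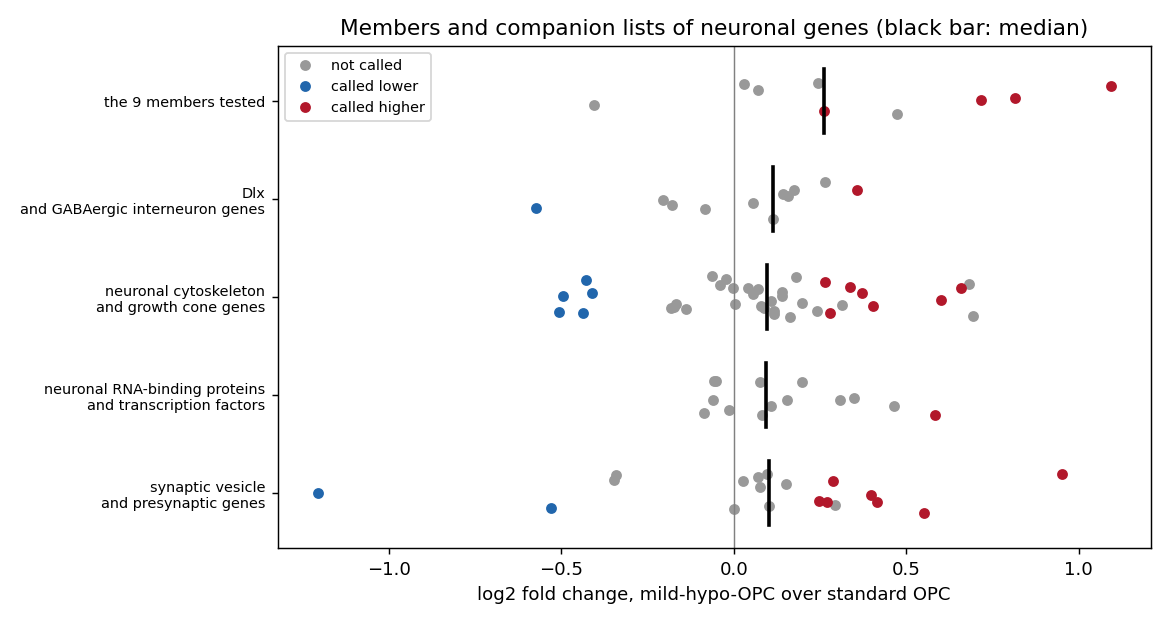
Log2 fold change of mild-hypo-OPCs over standard OPCs (horizontal axis) for each tested gene in the 4 lists and for the 9 tested members, coloured by call at an adjusted p of 0.05 in edgeR, with the median of each row as a black bar. The medians of the lists lay between 0.09 and 0.11, and calls in both directions occurred in 3 of the 4 lists.

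Markers of the labelled cell type were abundant in both groups. Beside the marker counts given from here on, 7.00% of all tested genes were called higher and 17.0% lower. The summed level of 8 OPC markers was 3891 to 4575 CPM in mild-hypo libraries against 3232 to 4090 CPM in the others, with 1 of 8 tested rising and none falling. That of 9 oligodendrocyte markers was 12939 to 14291 and 8796 to 12755 CPM without overlap, with 5 of 8 tested rising and none falling. Mature neuron markers summed to 71.2 to 86.6 and 47.3 to 72.9 CPM over 10 genes, of which 2 were tested and 1 rose. The list was mixed. Syn1 was detected at 204 to 469 counts per mild-hypo library and 37 to 90 per standard library, Grin1 at 25 to 74 and 5 to 17, and Syt1, Snap25 and Rbfox3 were detected in every library as well. The excitatory markers were nearly absent, with Slc17a7 at 0 in every mild-hypo library and at most 1 count elsewhere, and Slc17a6 and Nrgn at no more than 2 counts. The 9 GABAergic neuron markers summed to 18.6 to 24.9 and 14.8 to 22.9 CPM, with 1 tested and 0 called. Of these, Slc32a1, the vesicular GABA transporter gene, had 19 to 34 and 1 to 9 counts, Npy 19 to 47 and 2 to 11, and Lhx6 was at 0 in all 12 libraries. In these bulk samples, more cells of a type and more RNA per cell cannot be told apart.

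Of the marker lists for other cells that follow, only the microglial sum did not overlap between the groups, as was also the case for the oligodendrocyte sum above. The 10 microglial markers summed to 61.3 to 85.4 CPM against 23.9 to 58.6 CPM without overlap, with 3 of 5 tested rising. The 9 astrocyte markers summed to 838 to 971 and 782 to 866 CPM, with 2 of 7 tested rising and none falling, and the 9 neural progenitor markers to 828 to 890 and 760 to 876 CPM, with 1 of 5 rising and 1 falling. Endothelial and mesenchymal markers stayed at or below 3.73 CPM in sum, and none was tested. The part of these cell types in the differences of the members was not tested.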

How the data were processed

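RNA-seq was available for 12 rat OPC libraries, 6 mild-hypo-OPC and 6 standard OPC, grouped by the labels. The authors trimmed reads with Trimmomatic 0.36, checked them with FastQC 0.11.9, used STAR 2.7.9a for alignment to mRatBN7.2, and ran RSEM 1.3.3 for gene quantification, per the labels and the submitters' processing notes; the deposited values are whole-number counts per gene, and all 12 columns were used. Of the genes, 4367 had no symbol. The study's text gives fewer biological replicates per group than there are libraries.

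Genes above 10 CPM in at least 1 library (8938) were fitted with edgeR 4.0.16 in R 4.3.3 (TMM factors, glmQLFit and glmQLFTest, group as the only term, Benjamini-Hochberg adjustment over all genes tested, threshold 0.05). The log2 CPM values behind the deviations within groups used a prior count of 2. The code was tested on simulated data. The members and the gene lists were chosen with earlier results of these data known. Named genes were the members, 10 fixed relatives, the 4 called genes of each list and direction with the largest absolute log2 fold change, and the 5 genes most like the members within groups. Some named genes are not reported here. Marker lists were summed as CPM. Promoters came from RefSeq (GRCr8), matched by symbol.

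Alternatives were other scalings, filters, tools (DESeq2 1.42.0, limma-voom 3.58.1), thinned counts, a depth covariate, subsets of replicates, the replicate number as a block, and each library left out. The replicate numbers of the 2 groups did not pair the libraries. Depth differed between the groups without overlap, so genes with few counts are less precise in standard OPCs. Any pair of libraries of the same group differed beyond counting noise, so none was a repeat deposit.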

Additional observations from a re-analysis of the deposited data

How the results depend on the processing

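The number of tested members called higher was 4 under TMM scaling. It was 8 with library sizes only, 2 with replicates 1 to 3 only and 0 with the log2 total as a covariate, and no member was called lower under any setting. The members' median log2 fold change of 0.26 became 0.33 with upper-quartile factors, 0.70 with library sizes only, 0.40 without a filter (10 members), 0.36 with filterByExpr, 0.17 with at least 10 counts in every library (6 members), 0.030 with the covariate and 0.33 in thinned counts. Related genes called higher, 16 at first, came to 66 with library sizes only, 0 with the covariate, 2 with replicates 1 to 3 and 9 in thinned counts; those called lower, 8 at first, came to 1, 0, 1 and 4. Over all tested genes library sizes gave 5515 higher and 405 lower, replicates 1 to 3 gave 53 and 343, and the covariate gave 0 and 43. Without 1 library at a time, members called higher ran from 4 to 5, their median from 0.23 to 0.32, related genes higher from 11 to 20 and lower from 5 to 8. With library sizes only, members above their group mean came to 4, 8 and 10 in mild-hypo replicates 1, 4 and 5 and to 9, 3, 3, 4 and 6 in standard replicates 1 to 5. Stmn1 reversed to 0.38, Gap43 to 0.0088 and Stmn3 to 0.0061 with library sizes only, and Stmn3 to 0.44 with the covariate. The causes were not tested, except that thinning and subsets hold fewer counts or libraries.

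The replicate block gave 4 members called higher with a median of 0.26, and 15 related genes higher and 7 lower. Same-numbered libraries correlated from -0.28 to 0.30, and 1 of 6 correlated best with its own number, so the numbers were not taken as pairs.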

Other observations

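Syp varied less among the 6 mild-hypo libraries than counting alone would give, with a variance relative to counting error of 0.0635, which 0.0671% of all tested genes matched or undercut. In standard OPCs the same ratio was 2.67. The gene was singled out after its values were seen, and the difference was not tested.

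Differences also went with gene length on the genome. Among the 8544 tested genes with a known span, the shortest twentieth had a median log2 fold change of -0.45 and the longest of 0.00. Of the 9 tested members, 8 lay above the median of the genes of like span, and their median after that median was removed was 0.24; since the members were selected on this contrast, nothing is read from this. The part of RNA quality or library preparation in this was not tested.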
